A study of Rattus norvegicus with 12 samples.

Results

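Hemoglobin genes and Alas2 were examined in the left ventricles of neonatal rats as a readout of red blood cell RNA in the tissue. The 4 genes were fixed by their Ensembl identifiers, out of 34733 rows in each count file: Hba-a1 (ENSRNOG00000029886), Hba-a2 (ENSRNOG00000047321), Hbb (ENSRNOG00000058105) and Alas2 (ENSRNOG00000000167). A row was to be left out if it did not follow the other hemoglobin rows across libraries, and none was left out. Sprague–Dawley pups of either sex underwent abdominal aortic banding (ABS), which narrows the vessel with a tied suture, or a sham operation at postnatal day 1. Left ventricles were collected at postnatal day 3 (P3) or 7 (P7), with 3 libraries in each of the 4 groups named ABS P3, Sham P3, ABS P7 and Sham P7, and no allele or agent other than the surgery is named in the labels. The labels call the tissue left ventricular myocardiocytes, while the methods of the study describe whole left ventricles. Markers of cardiomyocytes could not be read, because no source used here links the row identifiers to gene names. The study allotted 3 pups of each surgery group to RNA sequencing on each day, the same number as the libraries, and the labels do not tie a library to a pup.

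Hemoglobin carries oxygen in red blood cells as a tetramer of alpha and beta chains, each holding 1 heme. Hba-a1 and Hba-a2 encode alpha chains, Hbb encodes a beta chain, and Alas2 encodes the erythroid form of the enzyme that starts heme synthesis in the mitochondrion. Immature red cells, the reticulocytes, still hold globin messenger RNA, and they are frequent in the blood of newborn rodents. A piece of ventricle holds blood in its chamber, coronary vessels and capillaries, so these RNAs can enter a heart library with blood. In such bulk libraries, fewer red cells and less RNA per red cell cannot be told apart.

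The alpha and beta genes lie in separate clusters of related genes, which bears on how reads are assigned to them. RefSeq lists 3 coding genes named Hba-a and 5 coding genes in the alpha cluster, and 8 in the beta cluster. Each of the older names of Hba-a1 and Hba-a2 is also given to the other gene, so the row called Hba-a1 here may be either copy. The 250 bases before the annotated start are shown for the 3 hemoglobin genes, because the alpha copies are so alike. Whether these sequences bear on the levels was not tested. They are from RefSeq, assembly GRCr8, all on the minus strand: Hba-a1 at chr10:15842581-15842830, Hba-a2 at chr10:15829139-15829388 and Hbb at chr1:167663722-167663971. The rat build behind the counts is not given in the sources used here, so these positions may differ from those of the counted rows. Capitals mark matches, on either strand, to 4 motifs. The GATA motif was searched as the letters GATAA. For the box named after its own sequence, the letters were CCAAT. The box bound by Klf proteins was searched with the letters CACCC. Last, the TATA box was searched with the letters TATAAA. No base lay in 2 of them.
Hba-a1: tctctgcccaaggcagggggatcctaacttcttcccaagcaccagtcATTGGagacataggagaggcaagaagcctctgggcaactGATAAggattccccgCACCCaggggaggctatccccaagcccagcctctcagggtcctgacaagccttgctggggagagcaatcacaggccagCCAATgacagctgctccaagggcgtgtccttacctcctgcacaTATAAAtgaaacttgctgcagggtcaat
Hba-a2: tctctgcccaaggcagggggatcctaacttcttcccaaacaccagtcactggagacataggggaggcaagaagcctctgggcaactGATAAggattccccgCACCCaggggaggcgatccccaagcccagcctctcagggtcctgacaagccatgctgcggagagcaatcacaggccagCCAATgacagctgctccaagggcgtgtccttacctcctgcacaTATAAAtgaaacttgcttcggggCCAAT
Hbb: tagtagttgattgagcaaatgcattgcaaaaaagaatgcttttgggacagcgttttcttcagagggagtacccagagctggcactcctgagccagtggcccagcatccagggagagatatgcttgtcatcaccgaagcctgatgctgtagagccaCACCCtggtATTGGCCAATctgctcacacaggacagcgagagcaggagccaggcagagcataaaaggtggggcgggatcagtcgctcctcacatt
Hba-a1 and Hba-a2 were identical at 96.4% of the 250 positions. In both, the GATA motif began 164 bases, the CACC box 149 bases, a CCAAT box 71 bases and the TATA box 28 bases before the start. Hba-a1 had another CCAAT box on the opposite strand 203 bases before the start, and Hba-a2 another 5 bases before it. In Hbb, the CACC box began 95 bases and a CCAAT box 81 bases before the start, with another CCAAT box on the opposite strand 86 bases before it. Hbb had 0 matches to the GATA motif and 0 to the TATA box, where only the exact letters were searched. Among 33469 windows of this length, 23.5% held the GATA motif, 34.0% the CCAAT box, 49.2% the CACC box and 12.9% the TATA box on either strand, so each motif alone is common. The window listed for Alas2 lies inside the gene and is not shown.

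Total counts were 14268210 to 17286278 per library. All 4 genes were counted in every library, with 656 counts at the lowest (Alas2 in ABS P3 replicate 3) and 160510 at the highest (Hba-a1 in Sham P3 replicate 2), so counting error was small beside the differences between libraries. Detected genes, those with 1 count or more, numbered 18579 to 18982 in the P7 libraries. They numbered 17259 to 18359 in ABS P3 replicate 3 and Sham P3 replicates 1 and 3, and 15266 to 15719 in ABS P3 replicates 1 and 2 and Sham P3 replicate 2, which stand apart from the rest. Levels are given in CPM, the counts of a gene scaled to a common library total, with totals adjusted by the trimmed mean of M-values (TMM). The TMM factors over all 12 libraries were 0.802 to 0.897 in the 3 libraries with few detected genes. They were 0.987 to 1.053 in the other P3 libraries and 1.064 to 1.094 at P7. A lower factor raises the CPM, so the 3 libraries are scaled up relative to plain shares of counts. They were not divided by gene length, so they are compared between libraries and not between genes.

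At P3, hemoglobin RNA divided the libraries across the surgery groups. Counts on Hba-a1, Hba-a2 and Hbb together made up 1.12%, 1.04% and 0.378% of the counts in ABS P3 replicates 1, 2 and 3. They made up 0.357%, 1.58% and 0.717% in Sham P3 replicates 1, 2 and 3. The 3 highest shares were thus in the 3 libraries with few detected genes, at 1.04% to 1.58%, against 0.357% to 0.717% in the other P3 libraries. At P7, the share was 0.552%, 0.683% and 0.907% in the ABS group and 0.679%, 0.511% and 1.12% in the sham group, at nearly constant numbers of detected genes. Sham P7 replicate 3, with the highest share of its day, also had the most detected genes of all libraries, 18982. The group means were 0.844% ± 0.406 in ABS P3, 0.886% ± 0.630 in Sham P3, 0.714% ± 0.180 in ABS P7 and 0.768% ± 0.312 in Sham P7 (SD, n = 3 each), with overlap between all groups. Whether RNA quality, blood content or the library itself accounts for the pattern at P3 was not tested.

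**Figure D1:**
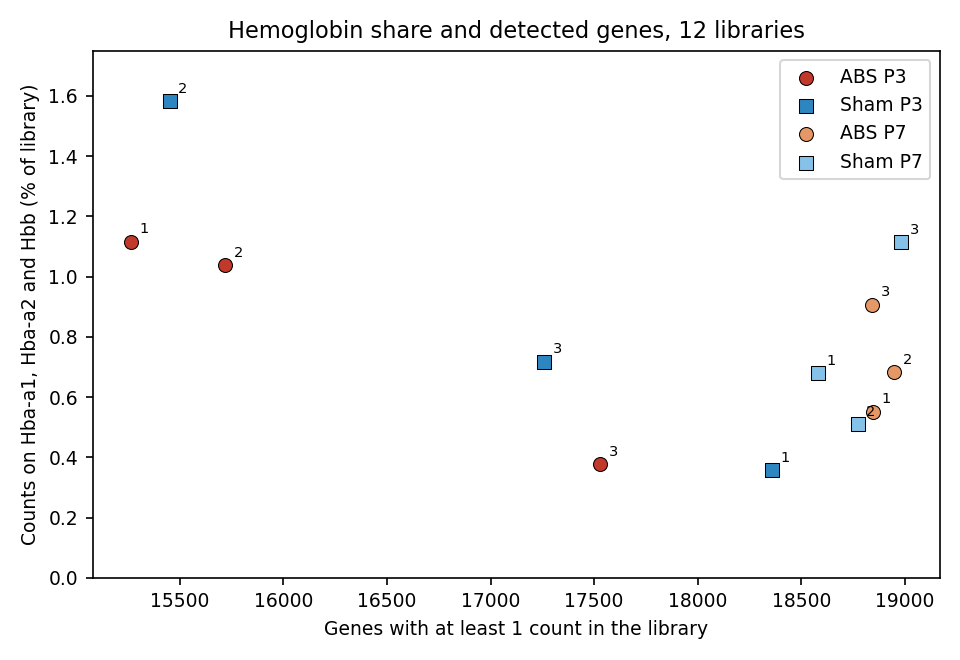
Share of counts on the 3 hemoglobin rows (vertical axis, percent of the library) against detected genes (horizontal axis, genes with 1 count or more) in the 12 libraries, with replicate numbers beside the points. ABS P3 replicates 1 and 2 and Sham P3 replicate 2, with 15266 to 15719 detected genes, hold 1.04% to 1.58%, while the P7 libraries spread from 0.511% to 1.12% at 18579 to 18982 genes.

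Hba-a1, an alpha chain gene, was at 8096, 6779 and 2131 CPM in ABS P3 replicates 1, 2 and 3 and at 2058, 11996 and 4227 CPM in Sham P3 replicates 1, 2 and 3. At P7, it was at 2969, 3761 and 4750.1 CPM in the ABS group and at 3396, 2711 and 5766 CPM in the sham group. Sham P3 replicate 2 was the highest and Sham P3 replicate 1 the lowest of all 12 libraries, 5.83-fold apart, so 1 group held both ends of the range. Within a group, the highest and lowest library differed 3.80-fold in ABS P3, 5.83-fold in Sham P3, 1.60-fold in ABS P7 and 2.13-fold in Sham P7.

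Hba-a2, the other alpha chain gene measured, was at 3878, 3630.3 and 1098 CPM in ABS P3 and at 1025, 5680.3 and 2067 CPM in Sham P3, in the order of replicates. It was at 1481, 1722 and 2552 CPM in ABS P7 and at 1891, 1218 and 2531 CPM in Sham P7. Within each group, the libraries were in the same order as for Hba-a1. Counts on Hba-a1 per count on Hba-a2 stayed between 1.80 and 2.28 in the 12 libraries, with a mean of 2.03 ± 0.151 (SD, n = 12). That ratio varied far less than the level of either row, which ranged 5.83-fold for Hba-a1 and 5.54-fold for Hba-a2 in CPM. The TMM scaling widens these ranges. As a plain share of counts, Hba-a1 ran from 0.210% to 0.962% and Hba-a2 from 0.104% to 0.456%.

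Hbb, the beta chain gene, was at 1222, 1168 and 360.2 CPM in ABS P3 and at 424.9, 2069 and 977 CPM in Sham P3, in the order of replicates. At P7, it was at 644, 939 and 1227 CPM in the ABS group and at 1007, 836 and 1894 CPM in the sham group. ABS P3 replicate 3 was the lowest of all libraries and Sham P3 replicate 2 the highest, with Sham P7 replicate 3 next to it. As a plain share of counts, Sham P7 replicate 3 was the highest, at 0.207% against 0.166% in Sham P3 replicate 2. The means were 917 ± 483 CPM in ABS P3, 1157 ± 836 CPM in Sham P3, 936 ± 292 CPM in ABS P7 and 1246 ± 568 CPM in Sham P7 (SD, n = 3 each).

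Alas2, the heme synthesis enzyme of red cell precursors, was present at a far smaller number of counts. It was at 98.3, 107 and 41.9 CPM in ABS P3 and at 45.5, 120 and 71.7 CPM in Sham P3, in the order of replicates. At P7, it was at 56.3, 62.6 and 86.3 CPM in the ABS group and at 59.9, 42.0 and 82.3 CPM in the sham group. Its high and low libraries at P3 were those of the hemoglobin rows, and replicate 3 was the highest of its group at P7 in both surgery groups. Its range over the 12 libraries was narrower in CPM, 2.85-fold against 5.83-fold for Hba-a1, 5.54-fold for Hba-a2 and 5.74-fold for Hbb. As a plain share of counts, Alas2 ran from 0.00441% in ABS P3 replicate 3 to 0.00964% in ABS P3 replicate 2.

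**Figure D2:**
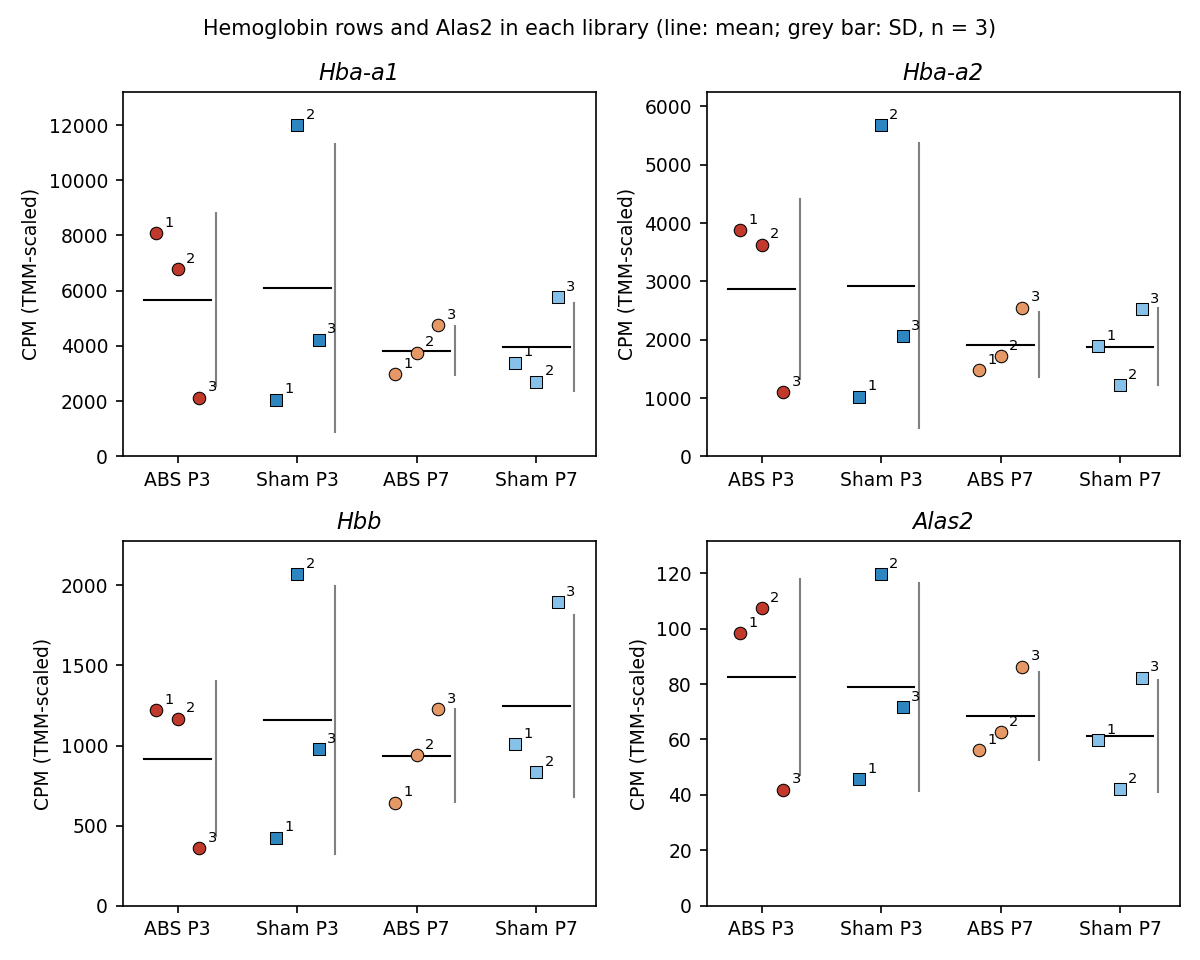
Level of each gene in the 12 libraries (vertical axis, CPM on TMM-scaled totals, linear from 0) by group, with the replicate number beside each point, the mean as a black line and the SD as a grey bar (n = 3). In each panel, Sham P3 replicate 2 is the highest point, and the SD of each surgery group is larger at P3 than at P7.

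The first comparison asked whether banding changed the amount of red cell RNA in the ventricle. None of the 4 genes passed the test between ABS and sham at either day, and the groups overlapped for each gene. At P3, the log2 fold change of ABS against sham was -0.09 (standard error 0.74) for Hba-a1, -0.01 (standard error 0.72) for Hba-a2, -0.32 (standard error 0.67) for Hbb and 0.08 (standard error 0.47) for Alas2. The adjusted p was 1.00 for each in edgeR's quasi-likelihood test, where 0 of 14222 genes tested (0.0%) were called at an adjusted p under 0.05 and 47 had an unadjusted p under 0.05. At P7, the log2 fold change was -0.05 (standard error 0.34) for Hba-a1, 0.03 (standard error 0.35) for Hba-a2, -0.41 (standard error 0.43) for Hbb and 0.16 (standard error 0.30) for Alas2. Again the adjusted p was 1.00 for each, with 0 of 14635 genes (0.0%) called and 498 at an unadjusted p under 0.05. DESeq2 called 4 of 20149 genes at P3 and 10 of 19085 at P7, and 0 of them were among the 4 hemoglobin and Alas2 rows. The exact permutation test of each gene's log2 CPM gave p = 0.9 to 1 at P3 and p = 0.5 to 1 at P7, two-sided, where 3 against 3 libraries cannot go below 0.1. The difference in mean log2 CPM that it tested at P3 was 0.055 for Hba-a1 and 0.12 for Hba-a2, opposite in sign to the fitted values. The median log2 fold change was -0.05 over the 4 genes at P3 and -0.01 at P7, against -0.01 and -0.00 over all genes tested, respectively.

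The sign of these values rested on single libraries. Without Sham P3 replicate 2, the log2 fold change of ABS against sham was 0.87 for Hba-a1, 0.91 for Hba-a2, 0.41 for Hbb and 0.51 for Alas2. Without Sham P3 replicate 1, it was -0.49, -0.41, -0.71 and -0.19. At P7, it was 0.33, 0.31, 0.026 and 0.43 without Sham P7 replicate 3, the library with the most Hbb of its day. The adjusted p was 0.9987 to 0.9999 from edgeR for the 4 genes in these 3 fits. With detected genes added to the fit as a covariate, a choice made after seeing the data, all 4 values at P3 were negative with smaller standard errors, at -0.67 (standard error 0.15) for Hba-a1, -0.58 (standard error 0.16) for Hba-a2, -0.91 (standard error 0.18) for Hbb and -0.36 (standard error 0.18) for Alas2. Their adjusted p was 0.154 to 0.495 from edgeR, where 0 of 14222 genes (0.0%) were called and 1603 had an unadjusted p under 0.05, Hba-a1, Hba-a2 and Hbb among them. Without the covariate, a change at P3 as large as the standard errors given was not detectable with these libraries.

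The comparison of days asked whether red cell RNA changed with age. In the sham group, the log2 fold change of P7 against P3 was -0.63 (standard error 0.65) for Hba-a1, -0.65 (standard error 0.63) for Hba-a2, 0.10 (standard error 0.59) for Hbb and -0.37 (standard error 0.41) for Alas2. In the ABS group, it was -0.60 (standard error 0.49), -0.61 (standard error 0.49), -0.00 (standard error 0.49) and -0.30 (standard error 0.38) for the genes in the same order. None was called, with adjusted p of 0.553 to 0.925 in the sham group and 0.469 to 0.998 in the ABS group by edgeR's test, which called 1 of 14619 genes (0.00684%) in sham and 2 of 14504 (0.0138%) in ABS. With DESeq2, 410 of 14749 genes in sham and 510 of 15848 in ABS were called, and 0 of them were among the 4. So small a share of all genes makes 0 of 4 uninformative about these rows. In the sham group, leaving out Sham P3 replicate 2 turned the sign of Hba-a1 (0.33), Hba-a2 (0.28) and Alas2 (0.066), and no other single library did. Hbb was at 0.83 without that library, and its sign turned without Sham P3 replicate 1 (-0.31), Sham P3 replicate 3 (-0.0071) or Sham P7 replicate 3 (-0.34). Without Sham P3 replicate 1, Hba-a1 and Hba-a2 were at -1.06 and Alas2 at -0.66. None of the 4 was called by edgeR in any of these fits. Without Sham P3 replicate 1, it called 4820 of 14979 genes in all. Without Sham P3 replicate 2, Sham P3 replicate 3 or Sham P7 replicate 3, it called 0. In the ABS group, the values were -0.25, -0.33, 0.26 and -0.15 without ABS P3 replicate 1, and Alas2 was at -0.058 without ABS P3 replicate 2.

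Over both surgery groups, with 6 libraries on each side, the log2 fold change of P7 against P3 was -0.59 (standard error 0.42) for Hba-a1 and -0.61 (standard error 0.41) for Hba-a2. It was 0.07 (standard error 0.39) for Hbb and -0.32 (standard error 0.28) for Alas2. The adjusted p from edgeR was 0.295, 0.275, 0.906 and 0.407, so 0 of the 4 genes were called while 17.1% of 15236 genes were. That background of 2603 genes itself ranged from 1069 without ABS P7 replicate 1 to 6232 without ABS P3 replicate 3. Without Sham P3 replicate 2, the log2 fold change was -0.17 for Hba-a1 and -0.20 for Hba-a2, and without Sham P3 replicate 1 it was -0.81 and -0.82. The median over the 4 was -0.46, against 0.03 over all genes tested. These fitted values rest in part on the scaling of totals, and no fit used plain totals. As a plain share of counts, the 3 hemoglobin rows held 0.865% ± 0.475 at P3 and 0.741% ± 0.230 at P7 (SD, n = 6 each). The exact permutation test with days exchanged within each surgery group gave p = 0.49, 0.455, 0.61 and 0.47, where 0.005 is the smallest p it can give. The differences in mean log2 CPM that it tested were -0.35, -0.38, 0.24 and -0.24, which differ from the fitted values. In the interaction of surgery and day, the log2 values were 0.06, 0.06, -0.08 and 0.09 with standard errors of 0.87, 0.85, 0.83 and 0.59, and 0 of 15236 genes (0.0%) were called by edgeR, with 176 at an unadjusted p under 0.05 and 5 called by DESeq2.

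The fitted changes with age moved with the P3 libraries that entered. The 3 P3 libraries with few detected genes hold the most hemoglobin RNA of their day, so leaving them out lowers the P3 level by construction, and it leaves 1 library in ABS P3, which is then assumed to vary like the other groups. This fit, chosen after seeing the data, gave log2 fold changes of P7 against P3 over both surgery groups of 0.51 (standard error 0.31) for Hba-a1, 0.46 (standard error 0.30) for Hba-a2, 1.02 (standard error 0.36) for Hbb and 0.29 (standard error 0.26) for Alas2. None of the 4 passed in it, with adjusted p from edgeR of 0.141 to 0.555, while 506 of 16054 genes (3.15%) were called. Within the ABS group, leaving out ABS P3 replicate 3, the lowest of its group for each of the 4 genes, raises the P3 level by construction. That fit gave -0.99 for Hba-a1, -0.996 for Hba-a2 and -0.62 for Alas2, with adjusted p of 0.00475, 0.00730 and 0.0260 from edgeR, and -0.38 for Hbb with an adjusted p of 0.221. It called 7468 of 14915 genes (50.1%). With that covariate of detected genes, the ABS group gave 2.01 for Hba-a1 and 2.47 for Hbb, which passed (adjusted p of 0.0368 and 0.0436 from edgeR). It gave 1.94 for Hba-a2 and 1.499 for Alas2, which did not pass, while 1047 of 14504 genes (7.22%) were called. Detected genes in ABS did not overlap between days, at 15266 to 17530 at P3 and 18842 to 18948 at P7. These values therefore extend the fitted trend beyond the libraries of each day.

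**Figure D3:**
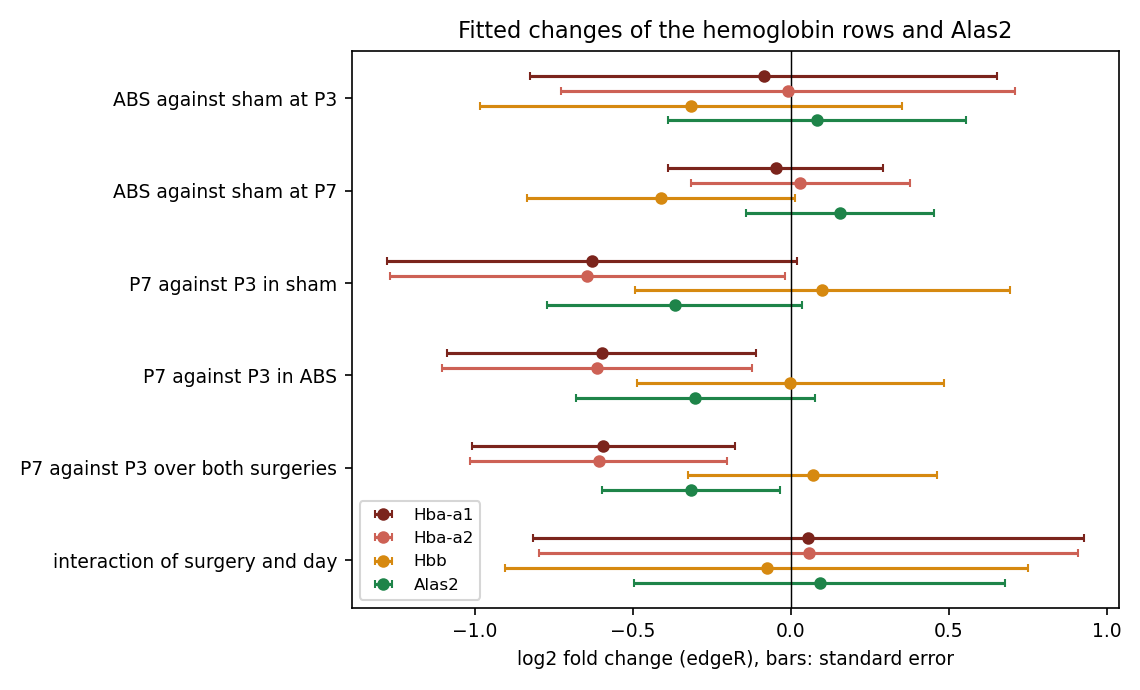
Fitted log2 fold change (horizontal axis) with its standard error as a bar for Hba-a1, Hba-a2, Hbb and Alas2 in the 6 comparisons (vertical axis), from edgeR. The alpha rows lie near -0.6 in the comparisons of P7 with P3 while Hbb lies between -0.00 and 0.10 there, and none of the 4 was called in any of the 6.

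Beta and alpha rows did not keep the same proportion in all groups. Per 100 counts on Hba-a1 and Hba-a2 together, Hbb had 10.2, 11.2 and 11.2 counts in ABS P3 replicates 1, 2 and 3 and 13.8, 11.7 and 15.5 counts in Sham P3 replicates 1, 2 and 3. At P7, it had 14.5, 17.1 and 16.8 counts in the ABS group and 19.0, 21.3 and 22.8 counts in the sham group. The ABS libraries lay below the sham libraries of the same day on both days, and the P7 libraries lay above the P3 libraries of the same surgery in both surgery groups, without overlap. At P3, the gap was small, with 11.2 in the highest ABS library and 11.7 in the lowest sham library, which is the library with the most hemoglobin. The means were 10.9 ± 0.567 in ABS P3, 13.7 ± 1.91 in Sham P3, 16.1 ± 1.45 in ABS P7 and 21.0 ± 1.90 in Sham P7 (SD, n = 3 each).

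This ratio was looked at after its values were seen and is given with no test. Taken the same way relative to the alpha rows, 8 of 15234 genes (0.0525%) lay lower in ABS than in sham without overlap on both days, 96 (0.63%) lay higher at P7 than at P3 without overlap in both surgery groups, and 4 (0.0263%) had both orders, Hbb included. These shares do not show how unusual Hbb is, because dividing by the alpha counts carries their spread within groups into every gene that does not follow them, while Hbb does follow them. Relative to Hba-a1 alone, the surgery groups were nearly tied at P3, with 17.23 per 100 in the highest ABS P3 library and 17.24 in the lowest Sham P3 library. Relative to Hba-a2 alone, the groups overlapped at P7, with 43.5 to 54.6 in ABS and 53.3 to 74.8 in sham. The order of ABS below sham on both days was therefore not clear relative to either alpha row alone. The order of P7 above P3 held without overlap relative to each. The likeness of Hbb to the other beta genes of its cluster was not measured. How reads shared between such genes were counted is not given in the sources used here. Hbb and its neighbours are therefore uncertain as separate genes.

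Alas2 had 7.45, 9.28 and 11.7 counts per 1000 hemoglobin counts in ABS P3 and 13.0, 6.06 and 9.86 in Sham P3, in the order of replicates. The lowest ratios at P3 were in the libraries with the most hemoglobin RNA, Sham P3 replicate 2 and ABS P3 replicate 1. At P7, it had 11.0, 9.75 and 10.1 counts in the ABS group and 9.51, 8.81 and 8.08 counts in the sham group, which did not overlap. Taken relative to the hemoglobin rows in the same way, 119 of 15233 genes (0.781%) lay higher in ABS than in sham at P7 without overlap, a share that its denominator limits as it does for Hbb, and the Alas2 ratio was given no test because its values were seen first. At P3 they overlapped, and the mean over the 6 libraries of a day was 9.55 ± 2.57 at P3 and 9.55 ± 1.03 at P7 (SD, n = 6 each).

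**Figure D4:**
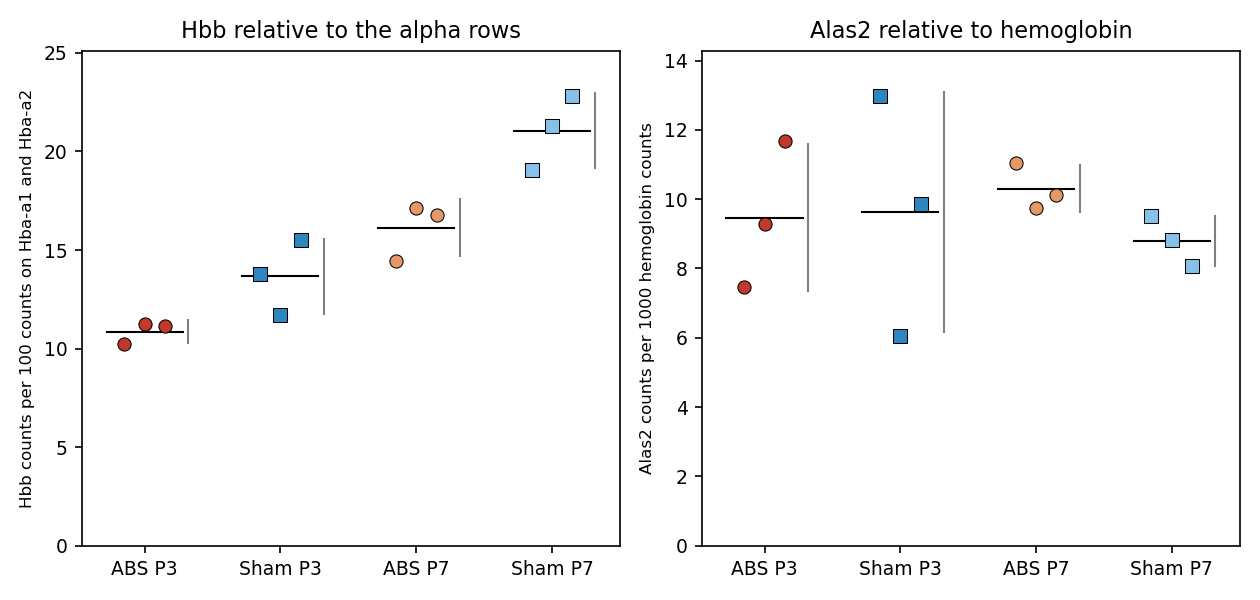
Left, Hbb counts per 100 counts on the alpha rows, and right, Alas2 counts per 1000 counts on the 3 hemoglobin rows (vertical axes, from 0) by group, with the mean as a black line and the SD as a grey bar (n = 3). On the left the groups follow the order ABS P3, Sham P3, ABS P7 and Sham P7 in their means, 10.9, 13.7, 16.1 and 21.0, and on the right the means lie between 8.80 and 10.3.

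Each of the 4 rows was then compared with the mean log2 CPM of the other hemoglobin rows across libraries, as the choice of the genes requires, so these correlations are a description. Over the 12 libraries, Pearson's r was 0.973 for Hba-a1, 0.952 for Hba-a2, 0.870 for Hbb and 0.954 for Alas2, and Spearman's rho was 0.958, 0.937, 0.909 and 0.972. The pair Hba-a1 and Hba-a2 had the highest r, 0.990, and the pair Hbb and Alas2 the lowest, 0.835. Over the 6 libraries of P3, r was 0.976 to 0.995 for the 4 rows, and over the 6 libraries of P7, it was 0.884 to 0.971. The pair Hbb and Alas2 was again the lowest on each day, at 0.972 at P3 and 0.735 at P7. Hbb had the lowest Pearson's r in each set of libraries, while by Spearman's rho the 4 rows tied at P3 (0.943) and Hba-a2 was lowest at P7 (0.829).

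At P3, a large part of the transcriptome moved with hemoglobin or against it. Of 13773 other genes that averaged 1 CPM or more, 3139 had an r above 0.8 with the mean of the 3 hemoglobin rows over the 6 libraries of P3, and 3270 had an r below -0.8, together 46.5%. At P7, 384 and 364 genes did, together 5.43%. Over the 12 libraries, genes past either limit made up 6.22%. Unrelated genes pass such a limit more easily over 6 libraries than over 12, so this share is not comparable with that of P7. The share that unrelated genes would reach was not computed. At P3, the 3 libraries with few detected genes were also the 3 with the most hemoglobin RNA, and the part of the number of detected genes in these correlations was not tested. The points of one library share its depth and preparation, and a large r over 6 libraries is a weak description of any single gene.

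Alas2 ranked 247 of these genes by r at P3 (r = 0.985) and 107 at P7 (r = 0.901), so on either day alone many other genes were at least as like hemoglobin. Over all 12 libraries, Alas2 ranked 3 (r = 0.954), and with the mean of each day subtracted it ranked 10 (r = 0.961), where 27.9% of the genes lay beyond 0.8 or -0.8. The closest row over the 12 libraries was ENSRNOG00000061299 (r = 0.970, 618 to 4042 CPM), followed by ENSRNOG00000021255 (r = 0.962, 15.4 to 42.6 CPM). The rows most opposed were ENSRNOG00000010601 (r = -0.943, 26.4 to 52.7 CPM) and ENSRNOG00000013340 (r = -0.929, 37.4 to 70.9 CPM). With the mean of each day subtracted, ENSRNOG00000061299 was again the closest row (r = 0.987). These rows are named by identifier, because no source used here pairs them with a gene name.

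**Figure D5:**
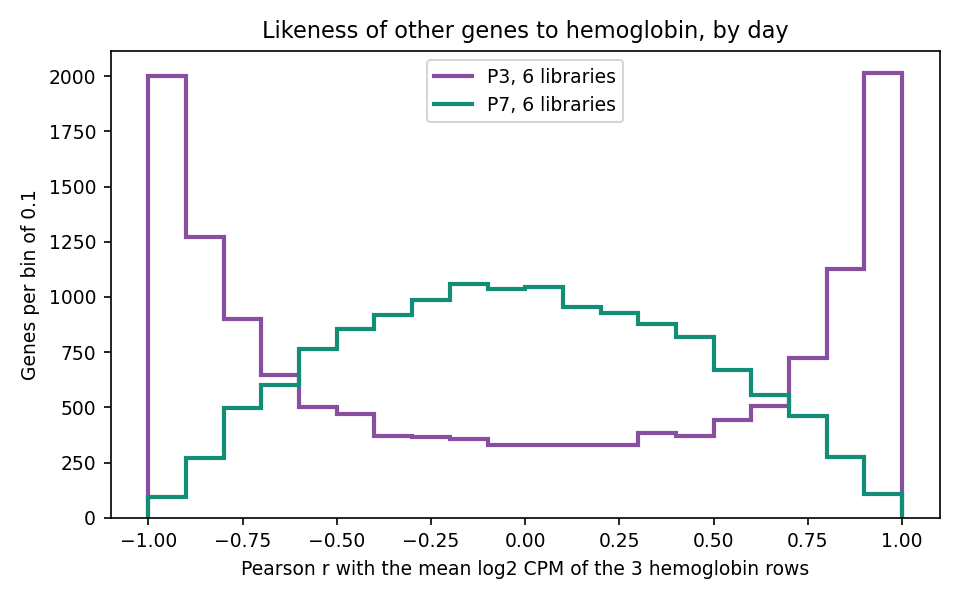
Number of genes (vertical axis) by Pearson r with the mean log2 CPM of the 3 hemoglobin rows (horizontal axis, bins of 0.1) for 13773 other genes, over the 6 libraries of P3 and the 6 of P7. At P3 the genes pile up at both ends, with 46.5% beyond 0.8 or -0.8, and at P7 the bins near 0 hold the most genes, with 5.43% beyond these values.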

How the data were processed

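Poly-A RNA of 12 left ventricle libraries was sequenced on an Illumina NovaSeq. The authors' filters for quality, adapters and poly-N came before counting with featureCounts. The deposited values are raw counts on 32883 Ensembl genes and 1850 rows outside them (0.983% to 1.27% of a library). The submitters' processing notes name HISAT2 2.0.5 and the mouse builds GRCm38 and mm10, while the identifiers are those of rat genes. The rat build, the annotation and the strand setting are not given in the sources used here, and reads of near-identical globin genes may have been split between rows or dropped.

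Counts were fitted with edgeR 4.0.16 in R 4.3.3 (TMM, filterByExpr, robust quasi-likelihood F test, two-sided), with Benjamini-Hochberg adjustment over all genes tested and a threshold of 0.05. Each day and each surgery group was fitted on its 6 libraries, and the day over both surgeries and the interaction on all 12. CPM used TMM-scaled totals, and correlations were taken on log2 CPM (prior count 2). Exact permutation tests were run per gene.

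Alternatives were DESeq2 1.42.0, RLE size factors, totals without the hemoglobin rows, no filter, a filter of 1 CPM in 3 libraries, all 12 libraries in 1 fit, a replicate block, each library left out and thinning to 14268210 counts. Chosen once the data had been seen were a covariate for detected genes and a fit without the 3 libraries with under 16000 detected genes. The rule for other named rows was the highest and lowest r with the hemoglobin mean among genes of at least 1 CPM, printed for 2 rows each way, because identifiers could not be matched to symbols (0 of the identifiers are in the RefSeq table). Lists of erythroid, heme, leukocyte and cardiomyocyte genes by symbol were therefore not used. The 4 genes and the lists were chosen with earlier results of these data known.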

Additional observations from a re-analysis of the deposited data

How the results depend on the processing

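The number of the 4 genes past the adjusted threshold stayed at 0 in 5 of the 6 comparisons under all alternatives. For P7 against P3 in ABS, it was 2 with detected genes as a covariate (Hba-a1 and Hbb, in a fit that called 7.22% of all genes) and 0 to 3 when one library at a time was left out, with 3 without ABS P3 replicate 3, where 50.1% of all genes were called. Of 420 fits of a single gene under the alternatives, 334 kept the direction and the side of the threshold, 83 turned the sign and 5 newly passed the threshold, 2 of which had also turned the sign. The lowest adjusted p was 0.154 for ABS against sham at P3, 0.89 at P7, 0.132 for P7 against P3 in sham, 0.00475 in ABS, 0.083 over both surgeries and 0.494 for the interaction, and the highest were 0.975 to 1. The cause of the changes below was not tested.

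Detected genes as a covariate and the omission of 3 libraries were chosen after seeing the data. With the covariate, Hba-a1, Hba-a2, Hbb and Alas2 were at -0.67, -0.58, -0.91 and -0.36 for ABS against sham at P3, and Hba-a2 was at -0.041 at P7. For P7 against P3, Hba-a1, Hba-a2, Alas2 and Hbb were at 1.22, 1.15, 0.53 and 1.65 in sham and 1.45, 1.38, 0.80 and 1.88 over both surgeries, and in ABS at 2.01, 1.94, 1.499 and 2.47. Detected genes did not overlap between P3 and P7 in either surgery group, so these values extend the fitted trend beyond the libraries of each day. In the interaction, Hba-a1, Hba-a2, Alas2 and Hbb were at 0.65, 0.66, 0.55 and 0.51. Without the 3 P3 libraries with few detected genes, ABS P3 holds 1 library, assumed to vary like the other groups, and the 4 genes were at -0.56, -0.49, -0.96 and -0.48 for ABS against sham at P3. For P7 against P3, Hba-a1, Hba-a2 and Alas2 were then at 0.33, 0.28 and 0.066 in sham and 0.51, 0.46 and 0.29 over both surgeries, and in ABS these were at 0.83, 0.79 and 0.70 with Hbb at 1.37. In the interaction without these 3 libraries, Hba-a1, Hba-a2, Alas2 and Hbb were at 0.52, 0.53, 0.65 and 0.56.

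Replicate numbers do not mark shared animals in the labels, so libraries of one number were not taken as pairs. Deviations of ABS and sham libraries of one number from their group means correlated at -0.446, 0.361 and -0.00765 on P3 for replicates 1, 2 and 3. On P7, they correlated at 0.0110, 0.0545 and 0.00449. Deviations from a mean of 3 libraries depend on each other, so these values cannot show whether a number marks a shared litter or batch. With the replicate block, 0 of the 4 genes were called in each comparison. Of all genes, 2203 of 15236 were called for P7 against P3 over both surgeries, and 0 in the other comparisons. With the block, Hba-a1 and Hba-a2 were at 0.0018 and 0.081 for ABS against sham at P3. Hba-a1, Hba-a2, Hbb and Alas2 were at -0.27, -0.29, 0.33 and -0.29 for P7 against P3 in sham. They were at -0.15, -0.11, -0.29 and 0.024 in the interaction. Hbb was at 0.11 for P7 against P3 in ABS. That last value, -0.00 as reported, was 0.024 with DESeq2, 0.012 with RLE size factors, 0.031 with all 12 libraries fitted and 0.048 without the filter.

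With one library left out, ABS against sham ranged at P3 from -0.49 to 0.87 for Hba-a1, -0.41 to 0.91 for Hba-a2, -0.71 to 0.41 for Hbb and -0.19 to 0.51 for Alas2, and at P7 from -0.26 to 0.33, -0.24 to 0.31, -0.66 to 0.026 and -0.058 to 0.43. P7 against P3 in sham ranged from -1.06 to 0.33, -1.06 to 0.28, -0.34 to 0.83 and -0.66 to 0.066, in ABS from -0.99 to -0.25, -0.996 to -0.33, -0.38 to 0.26 and -0.62 to -0.058, and over both surgeries from -0.81 to -0.17, -0.82 to -0.20, -0.15 to 0.38 and -0.49 to -0.12. The interaction ranged from -0.90 to 0.44, -0.86 to 0.44, -0.80 to 0.33 and -0.34 to 0.34.

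The lowest r of a row with the other hemoglobin rows, 0.870 as reported and that of Hbb, was 0.838 with plain totals, 0.909 as Spearman's rho, 0.920 without the 3 P3 libraries with few detected genes and 0.8325 to 0.8999 with one library left out. Group means of the hemoglobin share moved by less than 1 SD when rows outside the Ensembl genes were left out. Over all genes, the number called was 4 at P3 and 10 at P7 with DESeq2, 410 in sham, 510 in ABS and 4094 over both surgeries, against 0, 0, 1, 2 and 2603 in edgeR. It was 4820 for the day in sham without Sham P3 replicate 1, 7468 in ABS without ABS P3 replicate 3, 1069 to 6232 over both surgeries with one library left out, and 124 over both surgeries with detected genes as a covariate.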
